A study of Homo sapiens with 2 samples.

Results

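ERG and ETV1 are ETS genes that can be rearranged in prostate cancer (CaP), and both were on the prostate cancer qPCR panel of 84 genes. These 2 genes were taken by name from the gene descriptions and not by a measured value, though earlier results of these data were known. ERG was assayed as transcript NM_182918 and ETV1 as NM_004956. By the sample labels, RNA came from LNCaP, an established human CaP cell line. There was 1 sample of control cells and 1 sample of cells in which BMI1 had been silenced. Where these samples are called LNCaP below, this is by their label, which the levels of KLK3, GSTP1 and CAV1 go against. The sample labels name siRNA as the silencing agent, whereas the study's methods describe a short hairpin RNA vector and an empty vector for controls. Because the RNA of each group had been combined, there was no replicate and no test, and how far cultures vary is not known. BMI1 had 0 assays on the panel, so silencing was not checked on these samples.

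ETS factors share a DNA-binding domain that recognises sites with a GGAA core. In CaP, chromosomal rearrangements commonly join ERG, and less often ETV1, to the start of an androgen-responsive gene such as TMPRSS2, which brings the ETS gene under androgen control. ERG is otherwise best known from endothelial and blood cells, and ETV1 from developing neurons and from tumors. LNCaP is known for a rearranged and highly expressed ETV1 and for the lack of an ERG rearrangement. BMI1 is a subunit of Polycomb repressive complex PRC1, and Polycomb complexes are known to gather at CpG-rich gene starts.

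The sequence before the most upstream start that the RefSeq table lists for each gene is shown for that reason, with every CG dinucleotide in capitals (GRCh38.p14, minus strand, 250 bases). These are chr21:38660668-38660917 for ERG and chr7:13991426-13991675 for ETV1.
ERG: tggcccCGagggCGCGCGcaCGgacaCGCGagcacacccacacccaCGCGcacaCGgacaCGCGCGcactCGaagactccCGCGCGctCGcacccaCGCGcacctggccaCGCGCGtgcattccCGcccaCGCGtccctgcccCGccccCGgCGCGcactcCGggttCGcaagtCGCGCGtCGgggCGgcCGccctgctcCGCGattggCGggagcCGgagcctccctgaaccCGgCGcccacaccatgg
ETV1: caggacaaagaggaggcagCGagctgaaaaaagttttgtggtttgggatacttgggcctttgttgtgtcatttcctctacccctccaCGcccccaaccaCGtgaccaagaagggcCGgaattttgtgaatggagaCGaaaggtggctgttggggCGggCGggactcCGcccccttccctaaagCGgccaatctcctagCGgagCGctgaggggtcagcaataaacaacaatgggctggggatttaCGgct
The ERG window held 44 CG dinucleotides and the ETV1 window 12, against a median of 11 over all 35116 windows of this length in the table. The table lists 4 starts for ERG and 6 for ETV1. The other ERG windows held 2, 3 and 3 CG dinucleotides, and the other ETV1 windows between 0 and 15. The ETS motif CCGGAA, searched on both strands, was in 14.5% of all windows, in 3 of the 6 ETV1 windows and in 0 of the 4 ERG windows. These windows are not all separate, since 2 of the 3 ETV1 windows with the motif share 246 bases and 2 of the ERG windows share 223. The windows shown were picked by position and not by the assayed transcript, so they need not be the starts of the transcripts assayed. The start that these cells use was not measured on the array.

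Values are given as the normalized value, which is the amount of a transcript relative to a reference, and as the threshold cycle (Ct), which is lower when more transcript is present. A Ct above 32 had been set to 32 in the normalized table, and a gene at that ceiling gives a bound. The columns of the normalized table were taken as the header of the fold change table assigns them, with Sample 1 as control and Sample 2 as the test. Raw and normalized values go together only when the raw columns are exchanged. With that exchange 90 of the 96 wells matched, ERG and ETV1 among them, and with the columns as named 0 wells matched. Every direction given here therefore rests on the normalized table's assignment and is the opposite with the raw columns as named.

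The normalized value of ERG was 3.01 in control LNCaP cells and 0.293 after BMI1 silencing. These values correspond to a Ct of 26.1 and of 29.1, which are 5.95 and 2.86 cycles under the ceiling, so ERG was measured in both samples. The raw table holds the same Ct values in opposite columns, 29.1 under the name of the control and 26.1 under that of the silenced sample. ERG transcript was therefore lower in BMI1-silenced cells by 3.08 cycles before any correction for the amount of RNA.

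For ETV1 the normalized value was 2.05 in control LNCaP cells and 1.08 after BMI1 silencing. The corresponding Ct was 26.6 and then 27.2, which are 5.39 and 4.75 cycles under the ceiling. ETV1 was thus also measured in both samples, and its Ct differed by 0.641 cycles. As for ERG, the raw table holds both Ct values in opposite columns.

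**Figure D1:**
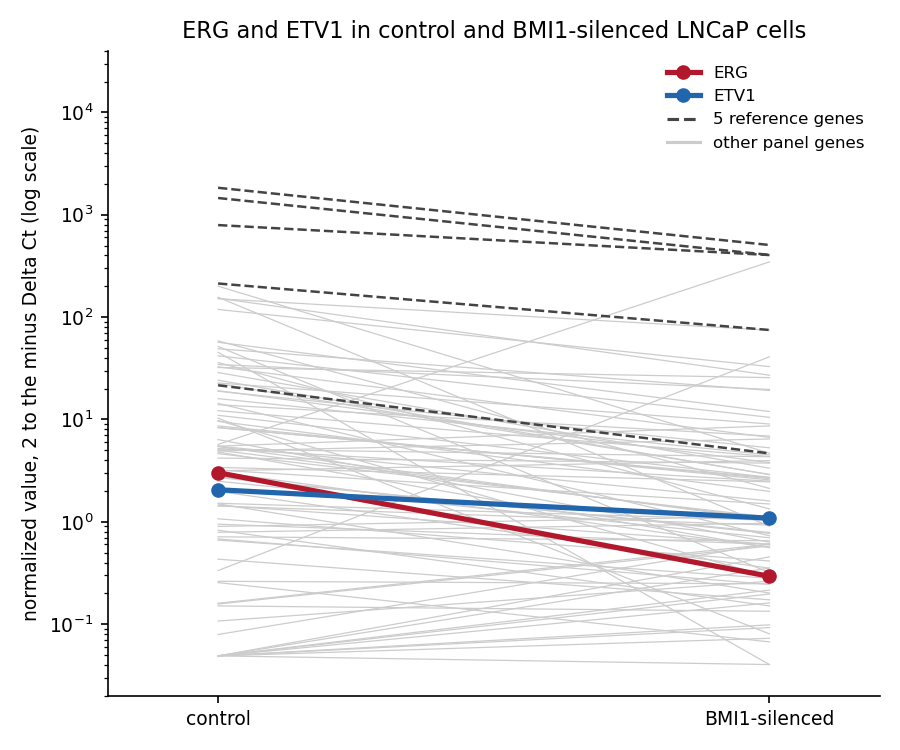
Normalized value (2 to the power of minus Delta Ct, log axis) of each gene in the control and the BMI1-silenced sample, 1 point per sample and no error bars, with ERG in red, ETV1 in blue, the 5 reference genes dashed and the other panel genes in grey. ERG lies above ETV1 in control (3.01 against 2.05) and below it in BMI1-silenced cells (0.293 against 1.08), and all 5 reference genes slope downwards.

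The genes commonly taken as constant were lower in BMI1-silenced cells too. The normalized values of ACTB, B2M, GAPDH, HPRT1 and RPLP0 had a mean log2 ratio of -1.68 (BMI1-silenced over control), with an SD of 0.47 across the 5 genes and an SE of 0.21. Relative to this mean the reference genes ranged from -0.53 (HPRT1) to 0.71 (GAPDH). The 3 positive PCR control wells, which test the PCR and not the RNA, had a mean log2 ratio of -0.36 with an SD of 0.20. These SDs describe genes and wells, not cultures. The genomic DNA control well had a Ct of 41.9 and 44.6 in the raw columns, above the Ct of ERG and ETV1 in either.

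Relative to the 5 reference genes, ERG had a log2 change of -1.68, or 3.21-fold lower in BMI1-silenced LNCaP cells. This value lay outside the range of the reference genes, at -3.61 times their SD. Of the 83 panel genes measured below the ceiling in a sample or in both, 16 (19.3%) were lower by 2-fold or more, and ERG was among them. In the order of changes from the lowest, ERG was the 10th, with 9 genes lower. Its neighbours were IGFBP5 (-2.62), a binding protein of insulin-like growth factors, and CDH1 (-1.65), the epithelial adhesion protein E-cadherin. ERG and CDH1 differed by less than the SD of the reference genes.

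ETV1 had a log2 change of 0.76 relative to the same genes, or 1.69-fold higher, and so stayed within 2-fold. It was not among the 29 genes (34.9%) that were at least 2-fold higher. The value lay 0.051 above that of GAPDH, the highest reference gene, and at 1.62 times the SD of the reference genes. ETV1 was the 53rd gene of 83 from the lowest, between SUPT7L (0.66), a subunit of a transcription coactivator complex, and RBM39 (0.87), an RNA-binding splicing protein. The median of the 83 genes was 0.20. ETV1 stood 0.56 above this median and ERG stood at -1.88 from it.

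**Figure D2:**
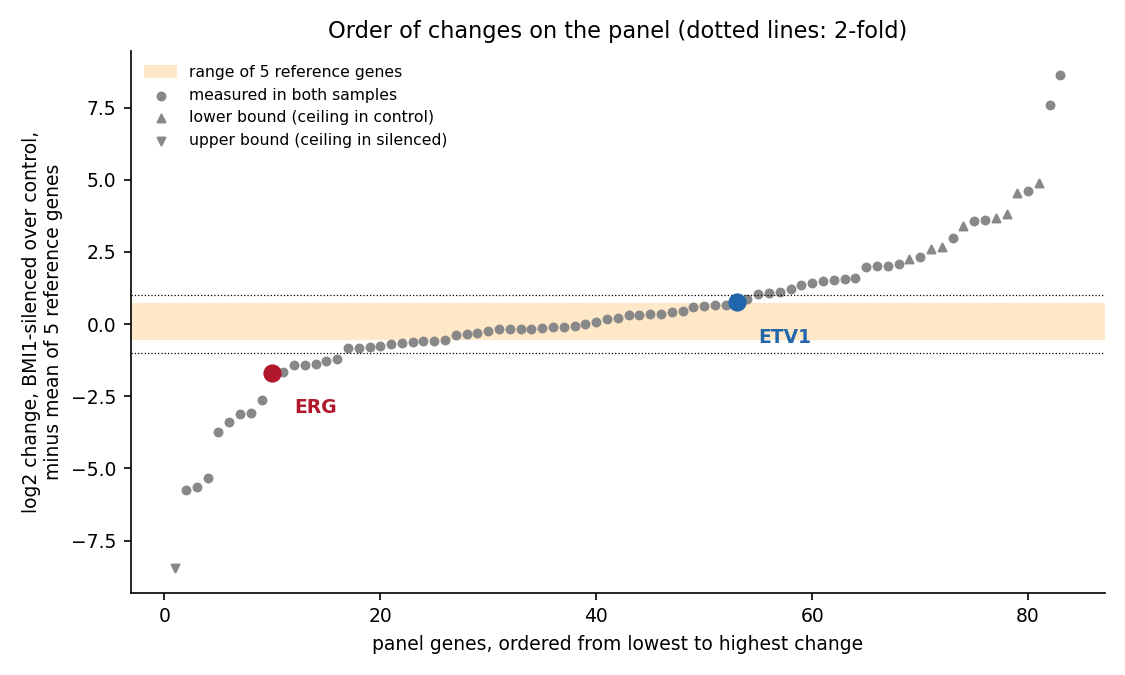
Log2 change (BMI1-silenced over control, minus the mean of 5 reference genes) of 83 panel genes in order from lowest to highest, with lower and upper bounds as triangles, the range of the reference genes shaded and 2-fold as dotted lines. ERG (-1.68) lies below the 2-fold line and ETV1 (0.76) lies between the 2-fold lines, just above the shaded range.

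The pair can be compared without any reference gene, since a reference shifts both by the same amount. The log2 change of ETV1 minus that of ERG was 2.44, a 5.43-fold shift in their proportion. In control cells the normalized value of ERG was 1.47 times that of ETV1. In BMI1-silenced cells the normalized value of ETV1 was 3.70 times that of ERG. The order of the 2 genes was therefore opposite in the 2 samples, if both assays amplify equally well. On the level scale ERG was the 49th of 84 panel genes in control and the 65th in BMI1-silenced cells, while ETV1 was the 53rd and the 40th.

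Every reference tried left ERG lower and ETV1 higher, while the ratio with no further reference had both lower. With single reference genes the log2 change of ERG ranged from -2.39 (GAPDH alone) to -1.15 (HPRT1 alone), which is at least 2-fold lower with each of the 5. That of ETV1 ranged from 0.051 (GAPDH alone) to 1.29 (HPRT1 alone), and only with HPRT1 alone was ETV1 at least 2-fold higher. In the normalized ratio as deposited, with no further reference, ERG was at -3.36 (10.3-fold lower) and ETV1 at -0.92 (1.89-fold lower). Without that correction 52 of 83 genes (62.7%) were past 2-fold on the lower side and 12 (14.5%) on the higher side. With the raw Ct columns as named, the log2 change was 1.68 for ERG and -0.76 for ETV1.

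**Figure D3:**
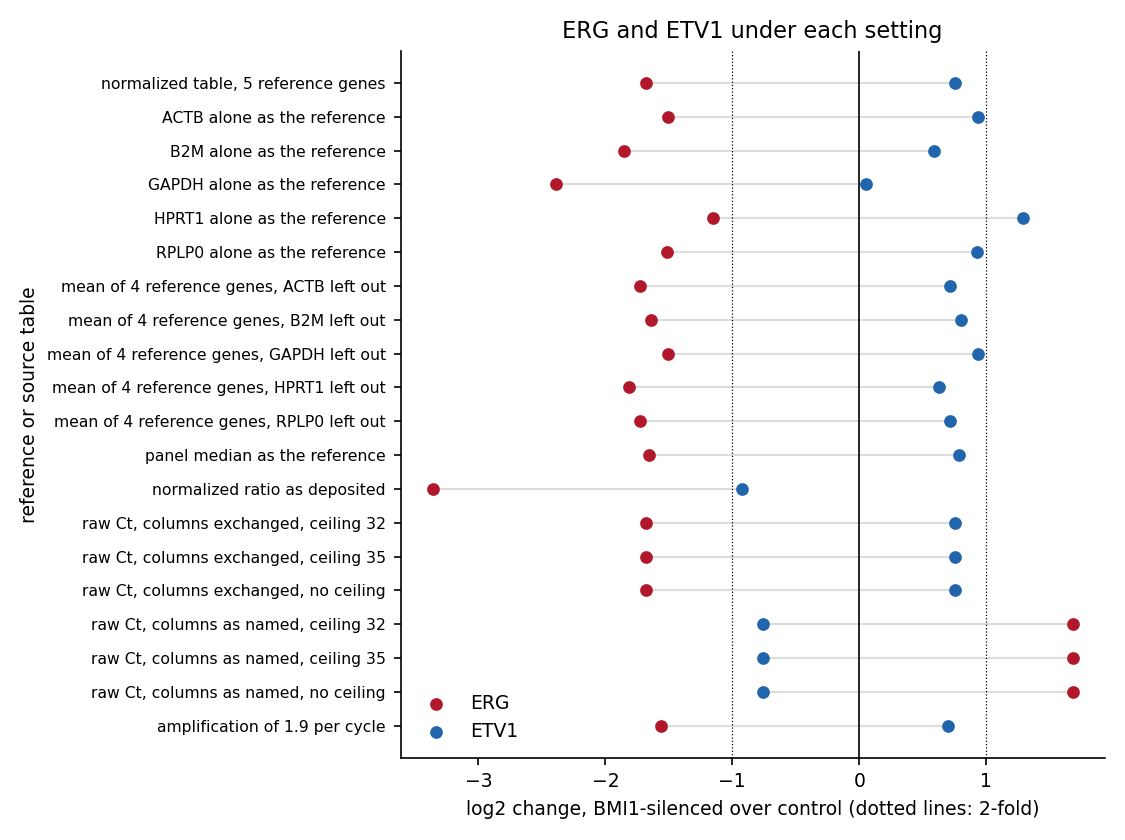
Log2 change (BMI1-silenced over control) of ERG (red) and ETV1 (blue) under each reference and source table, 1 row per setting, with 2-fold as dotted lines. ERG stays below ETV1 in every row but the 3 that take the raw columns as named, where ERG is at 1.68 and ETV1 at -0.76.

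The panel genes nearest to ERG in Ct, by the distance over both samples, were SREBF1 (0.663 cycles), a regulator of lipid synthesis, MGMT (0.944 cycles), a DNA repair enzyme, and IGF1 (1.15 cycles), a growth factor. Their log2 changes were -0.81, -0.76 and -1.43, so only IGF1 was also at least 2-fold lower. The genes nearest to ETV1 were TGFB1I1 (0.443 cycles), a coactivator of nuclear receptors, MSX1 (0.575 cycles), a homeobox factor, and MTO1 (0.61 cycles), which acts in mitochondrial translation. Their log2 changes were 1.13, 1.06 and -0.10. Distances of this kind rest on 2 samples and describe levels alone.

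ERG and ETV1 were set beside androgen-related genes, since androgen-responsive promoters drive the rearranged ETS genes. This list and the later ones were drawn up with earlier results of these data known. ERG was below all 7 genes of the androgen-related list, and ETV1 was above 3 of them. Of the 7, 4 were higher by 2-fold or more (34.9% of the panel), 0 were lower (19.3% of the panel) and 3 were within 2-fold, with a median log2 change of 1.55 beside 0.20 for the panel. TMPRSS2, the usual rearrangement partner of ERG, had normalized values of 0.713 (control) and 0.653 (BMI1-silenced), a log2 change of 1.55, and thus stood 3.23 above ERG and 0.79 above ETV1. KLK3, which encodes prostate-specific antigen, was at the ceiling in control (0.0489) and at 0.197 after silencing, which gives a log2 change of at least 3.69. As deposited, 3 of the 7 were past 2-fold on the lower side (62.7% of the panel), 2 on the higher side (14.5% of the panel) and 2 within 2-fold. Their median was then -0.13, above both ERG (-3.36) and ETV1 (-0.92).

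Growth factor signalling is known to activate ETS factors, and growth factor and kinase genes were therefore described with them. The list held 8 genes and does not cover every such gene of the panel. ERG was below all 7 that could be measured, and ETV1 was above all 7. The 3 of the list nearest to ERG, IGF1 (-1.43), the kinase AKT1 (-1.42) and the receptor EGFR (-1.39), were those of the list past 2-fold on the lower side. The median of the 7 was -0.65, between ERG and ETV1. Thus 3 of the 7 were lower, beside 19.3% of the panel, and 0 were higher, beside 34.9%. As deposited all 7 were past 2-fold on the lower side, as were 62.7% of the panel genes.

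In a list of 12 other sequence-specific transcription factors, ERG was above 1 and ETV1 above 4. The list does not cover every such factor of the panel, since SREBF1 (-0.81) was not in it. The 1 factor under ERG was NFKB1 (-5.66), a subunit of NF-kB. It was the only 1 of the 12 lower by 2-fold or more, beside 19.3% of the panel. Above ETV1 lay 8 factors that were higher by 2-fold or more (34.9% of the panel), from BMAL1 (1.03), a factor of the circadian clock, to EGR3 (4.62), an immediate early gene. The median of the 12 was 1.21, but as deposited it was -0.47, with 1 of the 12 higher by 2-fold (14.5% of the panel) and 4 lower (62.7%).

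**Figure D4:**
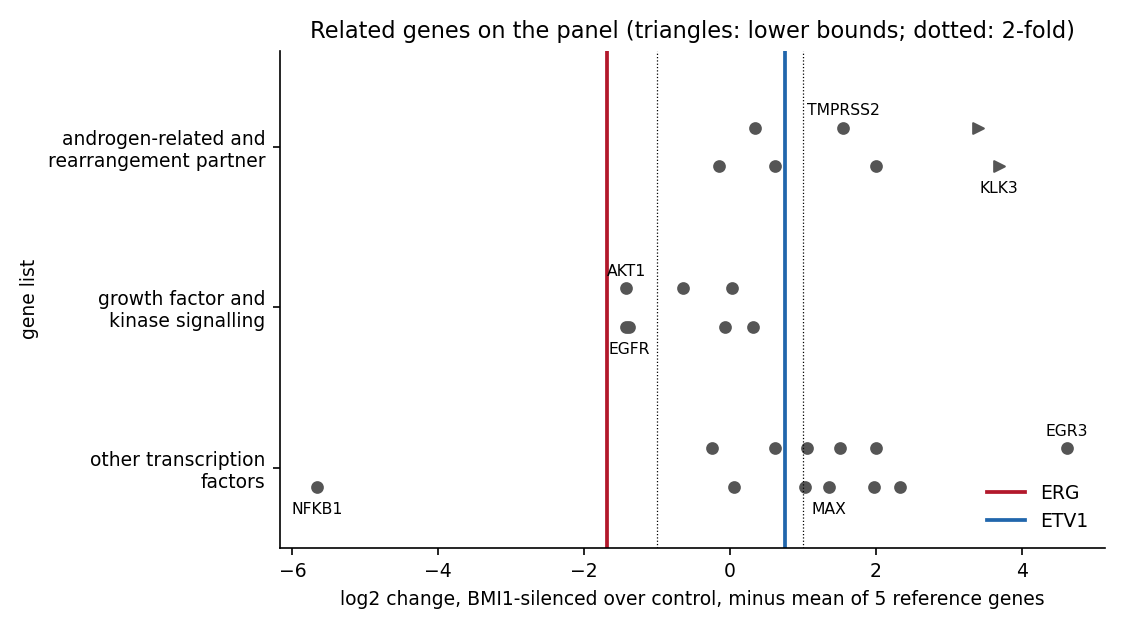
Log2 change (BMI1-silenced over control, minus the mean of 5 reference genes) of the measured genes in the 3 lists, 1 point per gene, with lower bounds as triangles, 2-fold as dotted lines and the values of ERG (-1.68) and ETV1 (0.76) as coloured lines. All points of the androgen and kinase lists lie to the right of ERG, and of the transcription factors NFKB1 alone (-5.66) lies to its left.

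The cell line label was compared with marker genes, as ERG and ETV1 levels are read against it. KLK3, a defining transcript of LNCaP, ranked 73rd of 84 panel genes in BMI1-silenced cells and was at the ceiling in control, where the matching raw Ct was 34.2. GSTP1, known to be silenced by promoter methylation in LNCaP, was the 5th most abundant panel gene in control and the 4th in BMI1-silenced cells, with normalized values of 119 and 32.8. CAV1, low in LNCaP, was the 3rd and the 5th, with normalized values of 153 and 27.0. PTGS2 ranked 62nd and 76th. KLK3, GSTP1 and CAV1 thus go against the LNCaP label in both samples, whichever column is taken as control, while the luminal gene TMPRSS2 was measured under the ceiling in both. ETV1, highly expressed in LNCaP through its rearrangement, was at or near the middle of the panel in both samples.

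ERG is also a marker of endothelial cells, and it was compared with 7 endothelial or stromal genes of the panel. ERG was above 1 of them, IGFBP5 (-2.62), and below the other 6, of which 3 were higher by 2-fold or more and 3 within 2-fold. On the panel 34.9% of genes were higher, so the share in this list was near that background. The normalized values of TIMP3, 1 of the 3 higher genes, do not match the raw table. The median log2 change of the 7 was 0.19. The endothelin receptor EDNRB was at the ceiling in control, where ERG had its higher value, and gave a log2 change of at least 2.69. The summed normalized value of the 7 genes was 200.2 in control, most of it CAV1, and 79.4 after silencing, of which 40.9 was TIMP3. Without TIMP3 these sums were 199.8 and 38.5, with 2 of 6 genes higher (34.9% of the panel) and 1 lower (19.3% of the panel). The part of other cell types in the ERG and ETV1 values was not tested. Fewer cells that express a gene and less transcript per cell cannot be told apart in such samples.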

How the data were processed

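Control LNCaP cells and cells with BMI1 silenced were assayed with a SYBR Green qPCR array (45 cycles, 1 microgram of total RNA per reverse transcription). The authors deposited normalized values, a ratio per the file headers (2 to the power of minus Delta Ct), and raw Ct values, here treated as a score per well, in the deposited tables. The software was the array vendor's. The fluorescence threshold of the Ct, the Ct ceiling and the reference genes are not given in the sources used here. The remaining table holds the authors' fold changes, and only its header was used. Every column of sample values in the other tables was used. From the values, the reference Ct was 27.6 for control and 27.4 for BMI1-silenced cells, and a well was counted as matching within 0.001 cycles.

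The change of a gene is log2 of the ratio of its normalized values, BMI1-silenced over control, less the mean of that quantity for the 5 reference genes. Genes were counted at 2-fold. With 1 sample per group no test was made. Accessions were matched to RefSeq (GRCh38.p14) for 88 of 89 genes, and promoter sequences were matched by symbol for both genes. ARNTL is named by its current symbol, BMAL1. The members, lists and alternatives were chosen with earlier results of these data known. The genes named are ERG, ETV1, the reference genes, genes of these lists, the 3 genes nearest in Ct and the neighbours in the order of changes. Some list members are counted but not reported singly here. The alternatives were other references, raw Ct values in either column order with ceilings of 32, 35 or none, an amplification of 1.9 per cycle, thresholds of 1.5-fold and 4-fold, and a filter at Ct 30. Simulated Ct values were used to test the calculation. Python 3.11.15, numpy 2.4.6 and matplotlib 3.10.9 were used.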

Additional observations from a re-analysis of the deposited data

How the results depend on the processing

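With ACTB, B2M or RPLP0 alone, with 4 reference genes, with the panel median, with raw Ct values in exchanged columns at each ceiling, or with an amplification of 1.9 per cycle, ERG, ETV1, their difference and the medians of the 3 lists kept their direction and moved by less than 0.47, the SD of the reference genes. With any 4 reference genes ERG ranged from -1.82 to -1.51 and ETV1 from 0.63 to 0.93. The counts of panel genes past 2-fold stayed within 1.5 times under these settings, at a 1.5-fold threshold and with a filter at Ct 30. At 4-fold 9 genes were lower and 18 higher, against 16 and 29.

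With GAPDH alone, ERG was at -2.39 and ETV1 at 0.051, the counts were 29 lower and 19 higher, and the list medians 0.84 (androgen-related genes), -1.36 (kinase signalling) and 0.50 (transcription factors). With HPRT1 alone these were -1.15 and 1.29 for ERG and ETV1, and 2.08, -0.12 and 1.74 for the medians. As deposited, ERG was at -3.36 and ETV1 at -0.92, the counts were 52 lower and 12 higher, and the list medians -0.13, -2.33 and -0.47. By construction, such a setting moves all genes equally.

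When the raw columns were taken as named, with a ceiling of 32 or 35 or without one, ERG was at 1.68, ETV1 at -0.76 and their difference at -2.44, and 16 genes were higher. The number lower was 31, or 32 with no ceiling. The medians were -2.01, 0.65 (0.36 with no ceiling) and -1.43. The sign here is set by the column that stands for control. No paired analysis was possible because there was a single sample per group. Without replicates no setting shows the spread between cultures.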
